A study of Homo sapiens with 8 samples.

Results

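The comparison set cells 3 days after treatment with hexavalent chromium against cells at 24 h of exposure, in 4 libraries of the 8 that the series holds. The cells were a lymphoblastoid line of human origin, which is a B cell culture made to grow without limit by Epstein-Barr virus, kept in RPMI medium. The 2 libraries of the 3 day group (labelled 3days post Cr6 treatment) and the 2 of the 24 h group (labelled 24h Cr6) were picked by these treatment labels, and both groups had met 5 µM chromium for 24 h. The remaining 4 libraries, 2 of untreated control cells and 2 from 7 days post treatment, entered the fit to give a common estimate of the spread. Replicates were labelled as biological, all groups came from 1 cell line, and no unexposed culture of the same age as the 3 day cells is analysed here, so removal of chromium and time in culture cannot be told apart. The sample labels count days from treatment while the series text counts from the start of exposure, so the 3 day samples may have had either 3 or fewer days without chromium.

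Hexavalent chromium enters cells as chromate, through carriers that admit sulfate and phosphate, and is reduced inside the cell to trivalent chromium, which binds DNA and protein while the reduction produces reactive oxygen. Chromate is known for DNA lesions and replication stress, and p53, a transcription factor that answers DNA damage, then drives genes of arrest and death. B cells transformed by Epstein-Barr virus depend on the viral protein LMP1, which mimics the receptor CD40 and keeps the transcription factor NF-kB active. NF-kB in turn sustains chemokines, adhesion molecules, costimulatory ligands and survival genes that mark an activated B cell.

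Each library held about as many reads in genes as the next, 10403981 and 11110830 at 3 days and 9587004 and 10434228 at 24 h. All 12 of the B cell markers examined reached 10 CPM (read counts scaled to a common library size, after TMM adjustment) in at least 1 library, and none of 11 T and NK cell markers did, with CD3D, CD3G, CD8A and NCAM1 at 0. Of 9 myeloid markers 1 reached that level, of 10 stromal or epithelial markers none did, and all 5 erythroid markers were at 0. All 7 plasma cell markers reached it, and B cells of this kind are known to express many of them. The 2 libraries of the 3 day group were far apart: 2315 genes (18.5% of those tested) differed at least 2-fold between them, whereas 737 (5.88%) did between the 24 h libraries. By a chi-square statistic per degree of freedom over genes, the 3 day libraries were 90.7 apart and the 24 h libraries 26.8 apart, while 3 day replicate 2 was 19 from 24 h replicate 2 and 29.6 from 24 h replicate 1. Libraries of different groups were nearer still: 3 day replicates 1 and 2 were 4.35 and 5.47 from the 7 day replicates of the same number, and 24 h replicates 1 and 2 were 6.31 and 6.05 from control replicates 2 and 1. The fit has no term for these ties. Replicate 1 at 3 days had 39.4% of its reads outside any counted feature and 12.5% of its gene counts in its 20 highest genes, against 46.1% and 9.51% in replicate 2 of that group. In the 24 h libraries these shares ran from 46.4% to 51.5% and from 8.88% to 9.42%. Results below are therefore given for each 3 day library, and in cells measured in bulk fewer cells of a type and less RNA per cell cannot be told apart.

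Of 12536 genes tested, none was called higher and none lower at 3 days than at 24 h by the quasi-likelihood test of edgeR after Benjamini-Hochberg adjustment over all of them (0% called, smallest adjusted p = 0.269, for ITGA1). At an unadjusted p under 0.05 the same test listed 291 genes higher (2.32%) and 473 genes lower (3.77%), 764 in all (6.09%). Chance would list 627 if all libraries were independent, which the ties above put in doubt. DESeq2, run on the same genes, called 1 gene higher (0.00798%) and 18 lower (0.144%) at an adjusted p under 0.05, and limma-voom called 0. With no filter on low counts edgeR called 2 genes higher and 19 lower, and 51 genes were called higher and 168 lower with a block that ties 3 day and 24 h libraries of opposite number, an alternative added once the values were known. All 19 genes called by DESeq2 had both 3 day libraries on the same side of both 24 h libraries. Over all genes, 2127 (17%) had both 3 day libraries above both 24 h libraries and 2206 (17.6%) had both below, 6433 (51.3%) had a higher mean and 6103 (48.7%) a lower one, and the median log2 fold change of 3 days over 24 h was 0.01. The number of genes at an unadjusted p under 0.05 rested on single libraries: it was 2325 without 3 day replicate 2, 350 without 3 day replicate 1 and 275 without 24 h replicate 1. Below, a gene is said to be called only where DESeq2 called it, and every other difference is given as a level in each library with the fitted log2 fold change ± its standard error from 2 libraries in each group. The p-values measure the spread among these libraries of 1 cell line.

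The collagen-binding integrin subunit gene ITGA1 had the smallest p of all genes. It stood at 22.6 and 20.7 CPM in the 3 day libraries, against 83.9 and 71.5 CPM in the 24 h libraries. Its log2 fold change was -1.84 ± 0.21, and DESeq2 called it lower (adjusted p = 9.0e-09). VCAM1, a membrane ligand for the integrin of activated leukocytes, was read from few counts, 8 and 12 at 3 days against 51 and 83 at 24 h. That is 0.822 and 1.07 CPM in the 3 day libraries, against 5.13 and 7.72 CPM in the 24 h libraries (log2 fold change -2.74 ± 0.42, DESeq2 adjusted p = 0.0038). ITGB8, the partner subunit of an integrin that activates latent TGF-beta, stood at 44.4 and 52.4 CPM at 3 days, against 92.6 and 139 CPM at 24 h (log2 fold change -1.26 ± 0.25, DESeq2 adjusted p = 0.018). The rule that chose these 3 genes required groups that do not overlap, which 17.6% of all genes met on the lower side. The adhesion list, which holds ITGA1 and VCAM1 but not ITGB8, differed less as a whole. Of 24 listed genes 21 were tested, 8 with a mean higher and 13 with a mean lower at 3 days. The median log2 fold change was -0.27, or -0.12 without 24 h replicate 1. Both 3 day libraries lay below both 24 h libraries for 8 of the 21 (38.1%) and above for 2 (9.52%), beside 17.6% and 17% of all genes. CD58, the ligand of the T cell surface molecule CD2, was among the 8 at 60.2 and 105 CPM at 3 days, against 152 and 148 CPM at 24 h, and SELPLG, the selectin ligand, was among the 2 at 8.02 and 8.74 CPM at 3 days, against 5.53 and 5.11 CPM at 24 h.

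**Figure D1:**
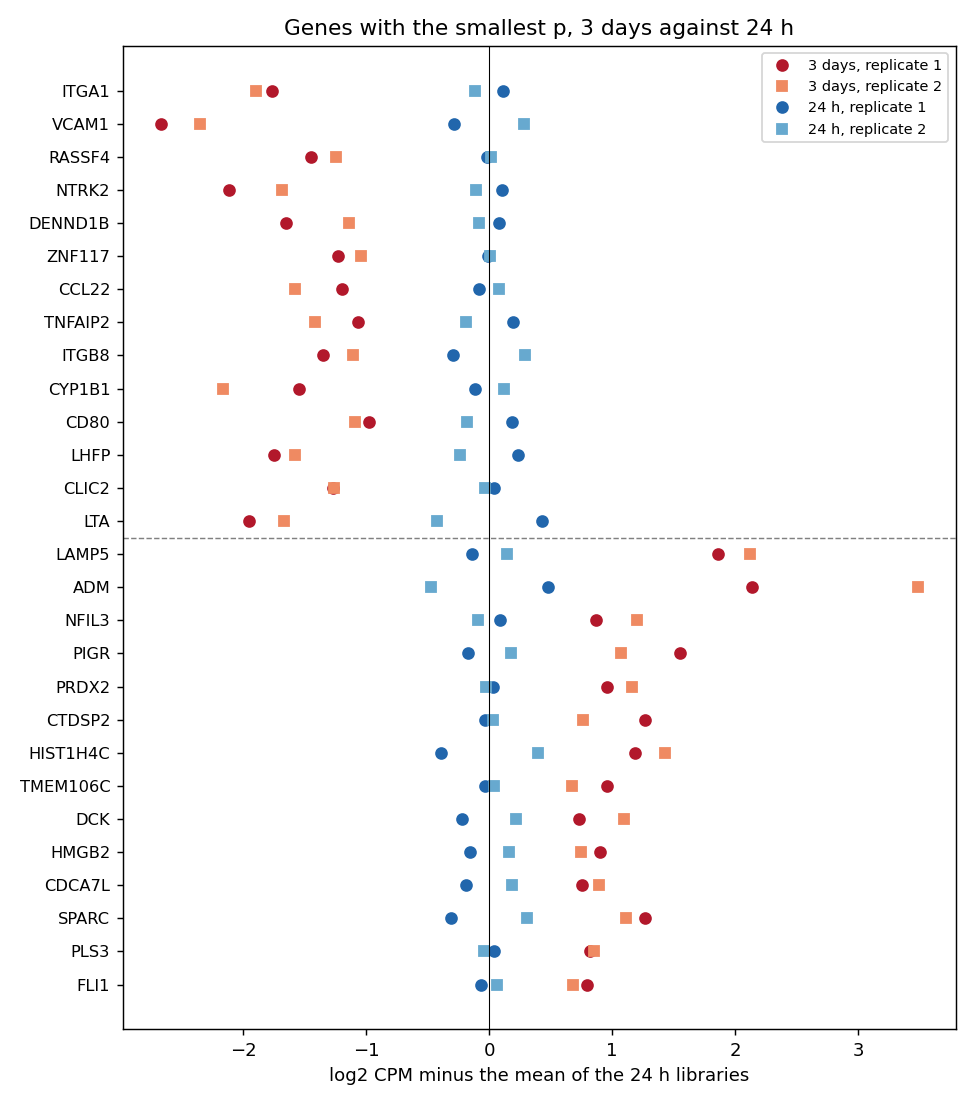
Log2 CPM of the 14 lower and 14 higher genes with the smallest p, each minus the mean of both 24 h libraries, with 1 point for each library (circles replicate 1, squares replicate 2, red and orange for 3 days, blue for 24 h). By the rule that chose them, the 3 day points lie on the same side of both 24 h points for each gene, with VCAM1 lowest and ADM highest.

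Genes driven by NF-kB stood lower at 3 days as a group. Of 35 such genes listed, 34 were tested, and 29 of them had a lower mean at 3 days, with a median log2 fold change of -0.62 against 0.01 for all genes. At an unadjusted p under 0.05, 14 were lower (41.2%) and 0 higher, beside 3.77% and 2.32% of all genes, and both 3 day libraries lay below both 24 h libraries for 19 (55.9%), beside 17.6% of all genes. Relative to the mean of the 24 h libraries, the list had a median of -0.48 in replicate 1 and -0.69 in replicate 2 at 3 days, whereas the 24 h libraries stood at 0.15 and -0.15. The direction was thus shared by both 3 day libraries, and the median of the list was -0.37 without 24 h replicate 1. DESeq2 called 4 members lower: VCAM1, CCL22, TNFAIP2 and LTA.

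The chemokine gene CCL22, whose product draws cells that carry CCR4, stood at 254 and 195 CPM at 3 days, against 552 and 617 CPM at 24 h (log2 fold change -1.38 ± 0.26, DESeq2 adjusted p = 0.0044). TNFAIP2, a gene known for its induction by TNF, had 17.4 and 13.6 CPM at 3 days, against 41.9 and 32.1 CPM at 24 h (log2 fold change -1.26 ± 0.25, DESeq2 adjusted p = 0.026). Groups that do not overlap were part of the rule that chose both genes. LTA, which encodes the TNF family cytokine lymphotoxin alpha, stood at 87.4 and 106 CPM at 3 days, against 455 and 252 CPM at 24 h. Its 24 h libraries were themselves apart, and both lay above the 3 day libraries (log2 fold change -1.87 ± 0.40, DESeq2 adjusted p = 0.011). The 5 members on the other side of 0, named after their values were seen, were CCL4, SOD2, FAS, IL10 and IRF1, with log2 fold changes no higher than 0.19.

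Among the NF-kB subunits and their inhibitors the difference was smaller. This list shares NFKB2, RELB, NFKBIA, NFKBIE and TNFAIP3 with the NF-kB target list. Of 19 genes, 13 had a lower mean at 3 days, the median log2 fold change was -0.18 (-0.34 without 24 h replicate 2), and 3 were lower at an unadjusted p under 0.05 (15.8%, beside 3.77% of all genes). NFKB2, the precursor of the p52 subunit, stood at 73.6 and 78.5 CPM at 3 days, against 155 and 128 CPM at 24 h (log2 fold change -0.89 ± 0.19). TNFAIP3, which encodes the ubiquitin-editing inhibitor A20, stood at 458 and 404 CPM at 3 days, against 815 and 669 CPM at 24 h (log2 fold change -0.78 ± 0.22). REL, the c-Rel subunit of B cells, stood at 49.7 and 60.5 CPM at 3 days, against 115 and 84.2 CPM at 24 h (log2 fold change -0.85 ± 0.26). The groups did not overlap in any of these 3 genes, none of which was called by edgeR or DESeq2.

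Because the NF-kB targets stood lower together, the promoters of VCAM1 and CCL22 are shown, as the window of 300 bases around the start of each gene, most of it upstream, from RefSeq on GRCh38.p14. Capitals mark matches to an NF-kB core searched as GGGNNNNNCC on both strands, with overlapping matches joined. The VCAM1 window is chr1:100719492-100719791 on the plus strand and holds 3 matches, and the CCL22 window is chr16:57358533-57358832 on the plus strand and holds 4.
VCAM1: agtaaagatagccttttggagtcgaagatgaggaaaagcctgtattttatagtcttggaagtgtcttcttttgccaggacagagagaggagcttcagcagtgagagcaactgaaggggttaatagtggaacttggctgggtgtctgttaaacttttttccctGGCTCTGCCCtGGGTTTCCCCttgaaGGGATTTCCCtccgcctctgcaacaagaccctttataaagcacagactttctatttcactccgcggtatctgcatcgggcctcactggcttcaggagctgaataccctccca
CCL22: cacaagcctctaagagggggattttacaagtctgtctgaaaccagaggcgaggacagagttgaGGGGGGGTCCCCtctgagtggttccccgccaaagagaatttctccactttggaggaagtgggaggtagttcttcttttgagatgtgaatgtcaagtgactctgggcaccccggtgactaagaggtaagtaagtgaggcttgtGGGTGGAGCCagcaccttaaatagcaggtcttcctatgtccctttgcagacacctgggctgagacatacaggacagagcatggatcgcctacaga
The core is loose and common: 21 of the 26 NF-kB targets with a promoter in the table held it (80.8%), beside 72.3% of tested genes with a promoter and 58.7% of all 35116 promoters. It was held by 32 of 37 promoters (86.5%) of the hypoxia and glycolysis list, which stood higher at 3 days, so it is not particular to the lower genes.

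Genes of B cell activation, most of them for surface molecules, were also lower on balance. Of 29 genes, 20 had a lower mean at 3 days, and the median log2 fold change was -0.36. At an unadjusted p under 0.05, 9 were lower (31%) and 0 higher, beside 3.77% and 2.32% of all genes. Both 3 day libraries lay below both 24 h libraries for 11 (37.9%), beside 17.6% of all genes. At 3 days, replicate 1 had a list median of -0.59 and replicate 2 of -0.31, and the 24 h libraries stood at 0.19 and -0.19. The median of the fold changes was -0.18 without 24 h replicate 1 and -0.61 without 3 day replicate 2. CD80, the ligand that B cells offer to CD28 and CTLA4 on T cells, stood at 115 and 106 CPM at 3 days, against 256 and 199 CPM at 24 h (log2 fold change -1.05 ± 0.22, DESeq2 adjusted p = 0.036). IL2RA, the alpha chain of the interleukin 2 receptor, had 10.9 and 11.8 CPM at 3 days, against 25.0 and 21.6 CPM at 24 h (log2 fold change -1.04 ± 0.24). Both genes were separated between groups. CD274, which encodes PD-L1, had 58.1 and 47.0 CPM at 3 days, against 193 and 74.9 CPM at 24 h, so that 24 h replicate 1 stood far above the other 3 libraries. TNFRSF9, the costimulatory receptor 4-1BB, had 5.14 and 6.51 CPM at 3 days, against 10.3 and 11.8 CPM at 24 h.

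The other cytokine genes followed LTA in part. Of 12 TNF superfamily ligands tested out of 15, 9 had a lower mean at 3 days and 4 were lower at an unadjusted p under 0.05 (33.3%, beside 3.77% of all genes), with a median log2 fold change of -0.64, or -0.29 without 24 h replicate 1. The B cell survival factor gene TNFSF13B (BAFF) had 11.5 and 17.5 CPM at 3 days, against 31.4 and 26.1 CPM at 24 h (log2 fold change -0.98 ± 0.27). TNF itself had 22.7 and 29.5 CPM at 3 days, against 50.8 and 37.9 CPM at 24 h, and neither gene overlapped between groups. Chemokines and their receptors were mixed: of 19 tested out of 21, 7 had a higher and 12 a lower mean at 3 days, and 3 were lower at an unadjusted p under 0.05 (15.8%). Beside CCL22 these were XCL1, at 4.42 and 4.28 CPM at 3 days, against 16.7 and 6.88 CPM at 24 h, and the inflammatory chemokine CCL3, at 222 and 217 CPM at 3 days, against 336 and 297 CPM at 24 h.

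Interferon-inducible genes stood lower at 3 days, and their list median also differed between the 24 h libraries. Of 43 interferon-stimulated genes, 38 had a lower mean at 3 days, and the median log2 fold change was -0.46. At an unadjusted p under 0.05, 11 were lower (25.6%) and 0 higher, beside 3.77% and 2.32% of all genes. Library medians of the list were -0.61 and -0.34 at 3 days and 0.24 and -0.24 at 24 h, so that 24 h replicate 2 stood nearer to 3 day replicate 2 than to its own replicate, and the median fold change was -0.22 without 24 h replicate 1. IFIH1, the RNA sensor MDA5, had 172 and 168 CPM at 3 days, against 419 and 256 CPM at 24 h (log2 fold change -0.99 ± 0.32). IFIT1, which binds foreign RNA, had 63.5 and 66.7 CPM at 3 days, against 129 and 93.4 CPM at 24 h (log2 fold change -0.77 ± 0.28). SAMD9, an antiviral factor, had 76.2 and 120.2 CPM at 3 days, against 241 and 161 CPM at 24 h (log2 fold change -1.04 ± 0.38). These 3 were separated between groups and were not called.

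For genes of the interferon gamma type, the list medians of the 24 h libraries lay closer together. Of 16 listed 14 were tested, 13 with a lower mean at 3 days, and the median log2 fold change was -0.76, or -0.46 without 24 h replicate 2. At 3 days, replicate 1 had a list median of -0.73 and replicate 2 of -0.65, where the 24 h libraries had -0.04 and 0.04, and 9 of the 14 (64.3%) had both 3 day libraries below both 24 h libraries, beside 17.6% of all genes. The guanylate-binding protein gene GBP4 had 59.5 and 42.8 CPM at 3 days, against 118 and 99.6 CPM at 24 h (log2 fold change -1.09 ± 0.25). Its relatives GBP1, at 84.2 and 88.5 CPM at 3 days against 143 and 158 CPM at 24 h, and GBP5, at 20.1 and 24.7 CPM at 3 days against 41.2 and 40.5 CPM at 24 h, had log2 fold changes of -0.80 ± 0.19 and -0.86 ± 0.23. CIITA, the coactivator of MHC class II genes, had 30.1 and 55.0 CPM at 3 days, against 79.6 and 94.1 CPM at 24 h (log2 fold change -1.03 ± 0.38). The MHC class II list that CIITA serves was split between the 3 day libraries, with medians of 0.18 in replicate 1 and -0.35 in replicate 2. Of its 18 members, 10 lay above both 24 h libraries in replicate 1 (55.6%, beside 40.9% of all genes). In replicate 2, 14 lay below both (77.8%, beside 31.2% of all genes). The median log2 fold change of this list was -0.06, or -0.37 without 3 day replicate 1 and 0.18 without 3 day replicate 2. An interferon response core, searched as GAAANNGAAA on both strands, was present in the promoters of 21 of 34 interferon-stimulated genes (61.8%) and 6 of 10 interferon gamma type genes (60%), beside 3.19% of tested genes.

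Several genes of other kinds were among the lower ones with the smallest p. RASSF4, a Ras association domain gene, stood at 13.2 and 15.2 CPM at 3 days, against 35.9 and 36.6 CPM at 24 h (log2 fold change -1.35 ± 0.22, DESeq2 adjusted p = 0.0038). NTRK2, which encodes the neurotrophin receptor TrkB, stood at 4.52 and 6.16 CPM at 3 days, against 21.8 and 18.8 CPM at 24 h (log2 fold change -1.92 ± 0.35, DESeq2 adjusted p = 0.0039). DENND1B, an exchange factor for Rab GTPases, stood at 8.74 and 12.6 CPM at 3 days, against 29.6 and 26.4 CPM at 24 h (log2 fold change -1.39 ± 0.26, DESeq2 adjusted p = 0.016). The zinc finger gene ZNF117 stood at 18.9 and 21.5 CPM at 3 days, against 44.3 and 44.7 CPM at 24 h (log2 fold change -1.14 ± 0.22, DESeq2 adjusted p = 0.019). The rule that chose these 4 genes required groups that do not overlap. LHFP and the chloride channel family gene CLIC2 met the same rule of choice without a DESeq2 call, at log2 fold changes of -1.74 ± 0.37 and -1.30 ± 0.28.

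CYP1B1, a monooxygenase of xenobiotic and steroid metabolism and a target of the aryl hydrocarbon receptor, stood at 7.09 and 4.55 CPM at 3 days, against 19.5 and 23.0 CPM at 24 h (log2 fold change -1.87 ± 0.37, DESeq2 adjusted p = 0.012). The receptor gene AHR had 116 and 124 CPM at 3 days, against 220.2 and 177 CPM at 24 h, and its repressor AHRR had 25.3 and 21.1 CPM at 3 days, against 46.6 and 35.6 CPM at 24 h. Of 8 genes tested in the list of 11 aryl hydrocarbon receptor genes, 4 had a higher and 4 a lower mean at 3 days. CREB3L1, a transcription factor held in the endoplasmic reticulum membrane, was read from 4 and 2 counts at 3 days, against 32 and 32 counts at 24 h (DESeq2 adjusted p = 0.048). Chosen after their values were seen, because DESeq2 called them, are the remaining 5 genes: LINC00158, LOC256021, TC2N, MS4A7 and MMP7. All of them were lower at 3 days, with log2 fold changes between -2.44 for TC2N and -1.64 for LINC00158.

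Of the complement and B cell receptor genes, CR2 differed most. CR2, the complement receptor CD21 that Epstein-Barr virus uses to enter B cells, had 95.0 and 150.0 CPM at 3 days, against 251 and 291 CPM at 24 h (log2 fold change -1.14 ± 0.32). MALT1, the protease of the signalling complex that leads to NF-kB, had 202 and 221 CPM at 3 days, against 349 and 295 CPM at 24 h. In the list of 25 B cell receptor genes, 13 had a higher and 12 a lower mean at 3 days, at a median log2 fold change of 0.02, or 0.22 without 24 h replicate 1 and -0.19 without 3 day replicate 2. The 3 day list medians were on opposite sides of 0, at -0.17 in replicate 1 and 0.15 in replicate 2. In replicate 1, 11 members lay below both 24 h libraries (44%, near the 41.9% of all genes). In replicate 2, 11 lay above both (44%, beside 32.2% of all genes). BCL2A1, a survival gene of the BCL2 family and an NF-kB target, had 71.9 and 91.7 CPM at 3 days, against 186 and 120.0 CPM at 24 h (log2 fold change -0.90 ± 0.28), while the family of 16 tested genes had a median of -0.09, with library medians of 0.18 and -0.02 at 3 days.

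**Figure D2:**
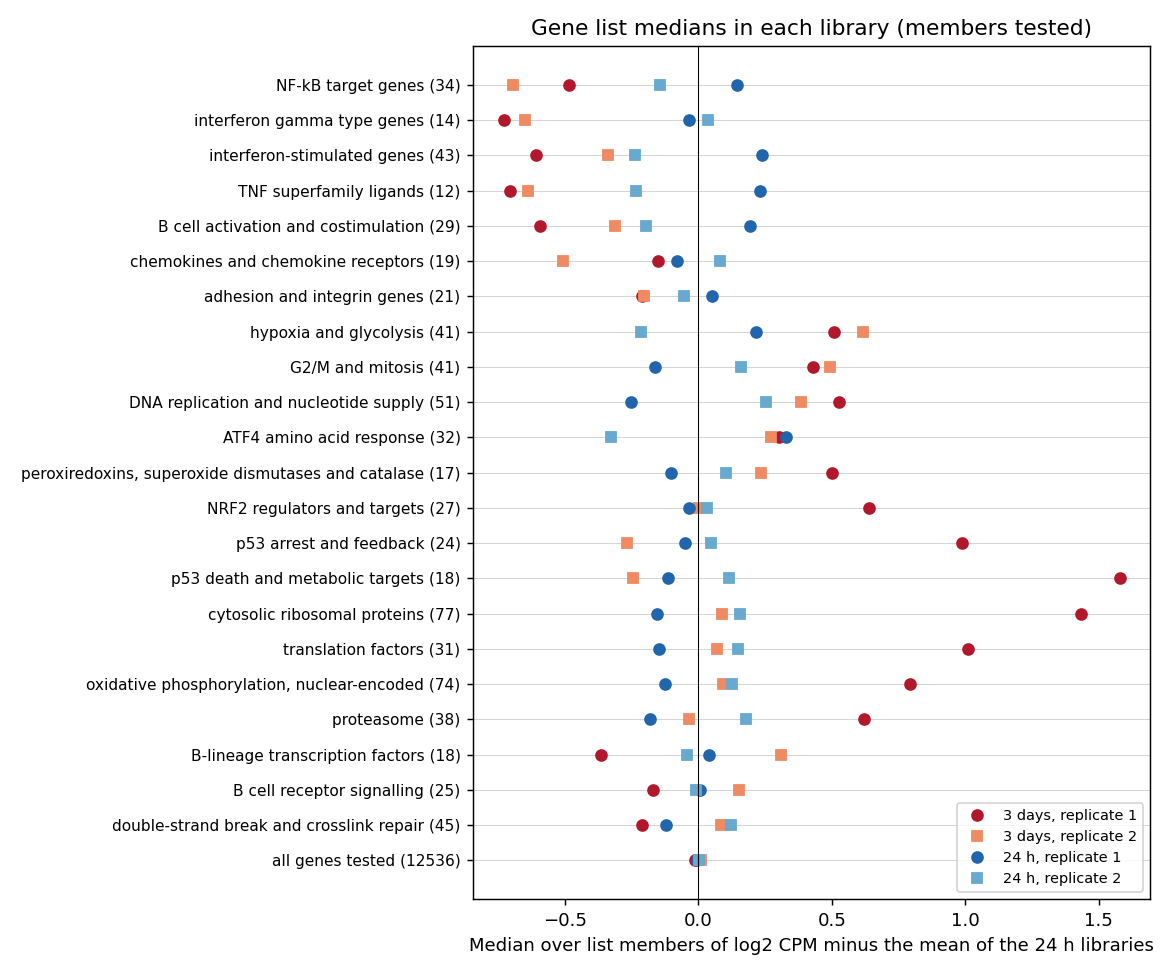
Median over the tested members of each gene list of log2 CPM minus the mean of the 24 h libraries, 1 point for each library (red and orange for 3 days, blue for 24 h, circles replicate 1 and squares replicate 2), with the number of members in parentheses. The NF-kB, interferon and TNF ligand lists have both 3 day points to the left of both 24 h points, the hypoxia and mitosis lists have both to the right, and the p53 and ribosomal lists have replicate 1 far to the right of the other 3 libraries.

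On the higher side, genes of hypoxia and glycolysis stood above their 24 h level in both 3 day libraries. Of 42 listed genes 41 were tested, 38 of them with a higher mean at 3 days, and the median log2 fold change was 0.57. At an unadjusted p under 0.05, 15 were higher (36.6%) and 0 lower, beside 2.32% and 3.77% of all genes, and both 3 day libraries lay above both 24 h libraries for 23 (56.1%), beside 17% of all genes. Both 3 day libraries had similar list medians, 0.51 and 0.62, and the 24 h libraries had 0.21 and -0.21, so that the median fold change was 0.90 without 24 h replicate 1 and 0.35 without 24 h replicate 2. ADM, which encodes the vasodilator peptide adrenomedullin, was the 1 gene that DESeq2 called higher (adjusted p = 0.019). It was read from 32 and 97 counts at 3 days, against 9 and 4 counts at 24 h, or 3.29 and 8.65 CPM at 3 days, against 0.905 and 0.372 CPM at 24 h (log2 fold change 3.22 ± 0.69). By the rule of choice the groups did not overlap, and both pairs of replicates were more than 2-fold apart. Control cells had 1.93 and 1.64 CPM, above both 24 h libraries. Against control the log2 fold change of 3 days was smaller, at 1.74 ± 0.62.

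Lactate dehydrogenase A, encoded by LDHA and the last step of fermentative glycolysis, stood at 3423 and 2505 CPM at 3 days, against 1641 and 1567 CPM at 24 h (log2 fold change 0.89 ± 0.26). DDIT4, an inhibitor of the growth kinase mTORC1, had 251 and 179 CPM at 3 days, against 127 and 75.2 CPM at 24 h (log2 fold change 1.08 ± 0.33). GPI, the isomerase of the second glycolytic step, had 459 and 266 CPM at 3 days, against 191 and 164 CPM at 24 h (log2 fold change 1.03 ± 0.32). In each of the 3 genes the 3 day libraries lay above both 24 h libraries, and no test called them. The 3 members with a lower mean at 3 days, also named after their values were seen, were PFKM, HIF1A and ENO2, none below a log2 fold change of -0.13, and HIF1A is the gene of the oxygen-regulated transcription factor itself. The promoters of LDHA and DDIT4 are shown as those of higher members that hold the hypoxia response core, searched as ACGTG on both strands and marked in capitals. The LDHA window is chr11:18394313-18394612 on the plus strand and the DDIT4 window is chr10:72273674-72273973 on the plus strand, from the same RefSeq table and build.
LDHA: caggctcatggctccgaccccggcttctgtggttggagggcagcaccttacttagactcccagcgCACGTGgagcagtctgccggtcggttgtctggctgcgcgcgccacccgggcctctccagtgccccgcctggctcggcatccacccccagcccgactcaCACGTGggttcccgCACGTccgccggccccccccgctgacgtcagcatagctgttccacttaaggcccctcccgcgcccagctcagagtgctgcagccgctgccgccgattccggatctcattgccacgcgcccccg
DDIT4: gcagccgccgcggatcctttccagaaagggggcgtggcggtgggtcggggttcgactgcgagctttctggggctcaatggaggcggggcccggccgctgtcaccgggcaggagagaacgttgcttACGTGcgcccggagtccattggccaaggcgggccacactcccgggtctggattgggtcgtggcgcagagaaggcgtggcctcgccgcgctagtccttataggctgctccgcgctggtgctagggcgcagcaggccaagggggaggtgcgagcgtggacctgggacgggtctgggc
The LDHA window held 5 matches, since a CACGTG site is matched on each strand, and the DDIT4 window held 1. Of 37 hypoxia and glycolysis genes with a listed promoter, 18 held the core (48.6%), beside 27.1% of tested genes and 21.4% of all promoters, and the window of ADM held 0. Of 35 genes of G2 phase and mitosis with a listed promoter, 14 held it (40%).

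Genes of cell division stood higher in both 3 day libraries. Of 41 genes of G2 phase and mitosis, 40 had a higher mean at 3 days, with a median log2 fold change of 0.44. The test listed 12 as higher (29.3%) and 0 as lower at an unadjusted p under 0.05, beside 2.32% and 3.77% of all genes. Both 3 day libraries lay above both 24 h libraries for 31 of the 41 (75.6%), beside 17% of all genes. Both 3 day libraries again had similar list medians, 0.43 and 0.49, and the 24 h libraries had -0.16 and 0.16, and the median fold change was 0.26 without 24 h replicate 1. NUSAP1, a spindle microtubule protein, had 224 and 205 CPM at 3 days, against 118 and 139 CPM at 24 h (log2 fold change 0.74 ± 0.21). CDC25C, the phosphatase that opens mitosis, had 36.4 and 34.7 CPM at 3 days, against 16.0 and 22.3 CPM at 24 h (log2 fold change 0.89 ± 0.25). HJURP, the chaperone that loads the centromeric histone, had 66.4 and 49.8 CPM at 3 days, against 25.9 and 36.2 CPM at 24 h (log2 fold change 0.90 ± 0.27). The 1 member with a lower mean, named after its values were seen, was ECT2, at a log2 fold change of -0.07.

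DNA replication and nucleotide supply genes showed the same side with wider spread: 47 of 51 had a higher mean at 3 days, at a median log2 fold change of 0.46. At an unadjusted p under 0.05, 3 were higher (5.88%) and 1 lower (1.96%), beside 2.32% and 3.77% of all genes. Both 3 day libraries lay above both 24 h libraries for 28 (54.9%) and below for 1 (1.96%), beside 17% and 17.6% of all genes. The 3 day libraries had list medians of 0.53 and 0.39 and the 24 h libraries of -0.25 and 0.25, so the 24 h replicates were further apart than in the mitosis list and the median fold change was 0.20 without 24 h replicate 1 and 0.73 without 24 h replicate 2. TK1, the thymidine kinase of S phase, had 51.4 and 28.7 CPM at 3 days, against 15.2 and 24.9 CPM at 24 h. RRM1, a subunit of ribonucleotide reductase, had 520.5 and 335 CPM at 3 days, against 158 and 274 CPM at 24 h. CCND2, the G1 cyclin D2, was the lower one, at 938 and 1161 CPM at 3 days, against 1462 and 1729 CPM at 24 h (log2 fold change -0.60 ± 0.25). Outside the lists but by the rule of choice, DCK, a kinase that salvages deoxynucleosides, had 169 and 218 CPM at 3 days, against 87.3 and 119 CPM at 24 h, and the chromatin protein gene HMGB2 had 553 and 497 CPM at 3 days, against 265 and 330.2 CPM at 24 h. The histone gene HIST1H4C had 23.8 and 28.3 CPM at 3 days, against 7.84 and 13.7 CPM at 24 h (log2 fold change 1.27 ± 0.33), and its sequence is close to that of other histone H4 genes, so its reads are uncertain.

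The smallest p on the higher side was that of LAMP5, a lysosome-associated membrane protein gene, at 5.04 and 6.07 CPM at 3 days, against 1.11 and 1.39 CPM at 24 h (log2 fold change 2.14 ± 0.44). NFIL3, a basic leucine zipper transcription factor, had 14.1 and 17.8 CPM at 3 days, against 8.14 and 7.16 CPM at 24 h (log2 fold change 1.06 ± 0.26). PIGR, the receptor that carries polymeric immunoglobulin across epithelia, had 20.4 and 14.5 CPM at 3 days, against 6.03 and 7.72 CPM at 24 h (log2 fold change 1.34 ± 0.33). By the rule that chose them none of the 3 overlapped between groups, and none was called. The remaining genes of that rule were CTDSP2, TMEM106C, CDCA7L, SPARC, PLS3 and FLI1, with log2 fold changes from 0.74 for the ETS factor FLI1 to 1.17 for SPARC, a matrix glycoprotein.

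The antioxidant lists stood higher with much of the height in replicate 1. All 17 genes of the peroxiredoxin, superoxide dismutase and catalase list had a higher mean at 3 days, at a median log2 fold change of 0.37, with library medians of 0.50 and 0.24 at 3 days and of -0.10 and 0.10 at 24 h. Without replicate 1 at 3 days the median fold change was 0.23. PRDX2, a cytosolic peroxidase, differed alike in both, at 14.4 and 16.6 CPM at 3 days, against 7.44 and 7.16 CPM at 24 h (log2 fold change 1.09 ± 0.27). MGST3, a membrane glutathione transferase, did so too, at 26.0 and 25.8 CPM at 3 days, against 16.1 and 13.0 CPM at 24 h (log2 fold change 0.83 ± 0.24). By contrast the glutathione peroxidase gene GPX1 had 137 and 39.9 CPM at 3 days, against 26.6 and 37.2 CPM at 24 h, with replicate 2 close to the 24 h libraries. The regulators and targets of NRF2, the oxidant-sensing transcription factor, had a library median of 0.64 in replicate 1 but of 0.00 in replicate 2, with 20 of 27 tested genes higher in the mean. Of them TKT, the transketolase of the pentose phosphate path, had 151 and 64.5 CPM at 3 days, against 50.4 and 44.5 CPM at 24 h, while ME1, the NADPH-making malic enzyme, had 8.74 and 12.7 CPM at 3 days, against 27.2 and 17.3 CPM at 24 h.

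Genes of the amino acid response driven by ATF4 were higher in part: 22 of 32 had a higher mean at 3 days, 5 were higher (15.6%, beside 2.32% of all genes) and 0 lower at an unadjusted p under 0.05, and the median log2 fold change was 0.17. The 24 h libraries differed more here, at list medians of 0.33 and -0.33, than the 3 day libraries at 0.30 and 0.27. The median fold change was accordingly 0.69 without 24 h replicate 1, -0.02 without 24 h replicate 2 and 0.27 without 3 day replicate 2. SHMT2, the mitochondrial serine hydroxymethyltransferase, had 119 and 88.1 CPM at 3 days, against 68.8 and 43.9 CPM at 24 h. PHGDH, the first enzyme of serine synthesis, had 47.4 and 34.9 CPM at 3 days, against 25.0 and 12.7 CPM at 24 h. Both were above the 24 h libraries in both replicates. Among immediate early genes, FOSB and FOS, components of the AP-1 factor, stood higher, FOSB at 7.81 and 16.1 CPM at 3 days against 1.91 and 3.16 CPM at 24 h, and FOS at 11.9 and 16.6 CPM at 3 days against 2.41 and 6.14 CPM at 24 h. The list of 29 as a whole did not share that side, with 11 higher and 18 lower and a median of -0.11.

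Targets of p53 stood high mainly in 1 of the 3 day libraries, replicate 1. Of 24 genes of arrest and feedback, 20 (83.3%) lay above both 24 h libraries in 3 day replicate 1. In replicate 2, 5 (20.8%) lay above both and 12 (50%) below both. Of 18 tested genes of death and metabolism, 16 (88.9%) lay above in replicate 1. In replicate 2, 2 (11.1%) lay above and 12 (66.7%) below. Over all genes 40.9% lay above both in replicate 1, and 32.2% lay above and 31.2% below both in replicate 2. For arrest genes replicate 1 had a list median of 0.99 and replicate 2 of -0.27, for death genes 1.58 and -0.25, while the 24 h libraries stayed between -0.11 and 0.11. FDXR, a p53 target of mitochondrial electron transfer, had 73.6 and 14.3 CPM at 3 days, against 11.3 and 16.7 CPM at 24 h, and the death receptor gene TNFRSF10A had 24.4 and 5.00 CPM at 3 days, against 3.72 and 5.02 CPM at 24 h. The groups overlapped in both. Without 3 day replicate 1 the median fold changes were -0.29 for arrest and -0.25 for death, and without 3 day replicate 2 they were 0.98 and 1.57. POLH, the polymerase that copies past damaged bases, was the 1 arrest list gene at an unadjusted p under 0.05, with 216 and 142 CPM at 3 days, against 82.6 and 106 CPM at 24 h.

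Genes of ribosomal proteins and translation factors also stood highest in 3 day replicate 1, but in replicate 2 they did not lean below the 24 h libraries. Of 77 cytosolic ribosomal protein genes tested, 76 had a higher mean at 3 days and the median log2 fold change was 0.91, but replicate 1 had a list median of 1.43 and replicate 2 of 0.09, and the 24 h libraries stood at -0.16 and 0.16. The median fold change was 0.08 without 3 day replicate 1 and 1.43 without 3 day replicate 2. In replicate 2, 33 of the 77 lay above both 24 h libraries (42.9%, beside 32.2% of all genes) and 12 below both (15.6%, beside 31.2%). At an unadjusted p under 0.05, 13 were higher (16.9%) and 0 lower, beside 2.32% and 3.77% of all genes. RPL8, of the large subunit, had 268 and 117 CPM at 3 days, against 69.5 and 77.5 CPM at 24 h (log2 fold change 1.39 ± 0.43), and processed copies of such genes make their counts uncertain. Replicates 1 and 2 at 3 days had list medians of 1.01 and 0.07 for translation factors, 0.79 and 0.09 for nuclear-encoded respiratory subunits, 0.62 and 0.10 for mitochondrial ribosomal proteins, and 0.62 and -0.03 for the proteasome. They had 0.52 and -0.07 for ribosome biogenesis genes and 0.89 and -0.06 for small nucleolar RNA host genes. Replicate 1 at 3 days was also the library with the highest share of counts in its 20 highest genes (12.5% against 8.88% to 9.51% in the other 3) and the lowest share of reads outside features (39.4% against 46.1% to 51.5%), and their part in these lists was not tested. The plasma cell marker SDC1 was also highest in replicate 1, at 22.0 and 9.46 CPM at 3 days, against 5.73 and 6.88 CPM at 24 h. The list of 7 plasma cell markers was divided the other way, with medians of -0.39 in replicate 1 and 0.41 in replicate 2. In replicate 1, 1 of the 7 lay above both 24 h libraries and 4 (57.1%, beside 41.9% of all genes) below both. In replicate 2, 5 (71.4%, beside 32.2% of all genes) lay above both. The summed level of these markers ran from 5380 to 9990 CPM at 3 days and from 8020 to 8600 CPM at 24 h.

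**Figure D3:**
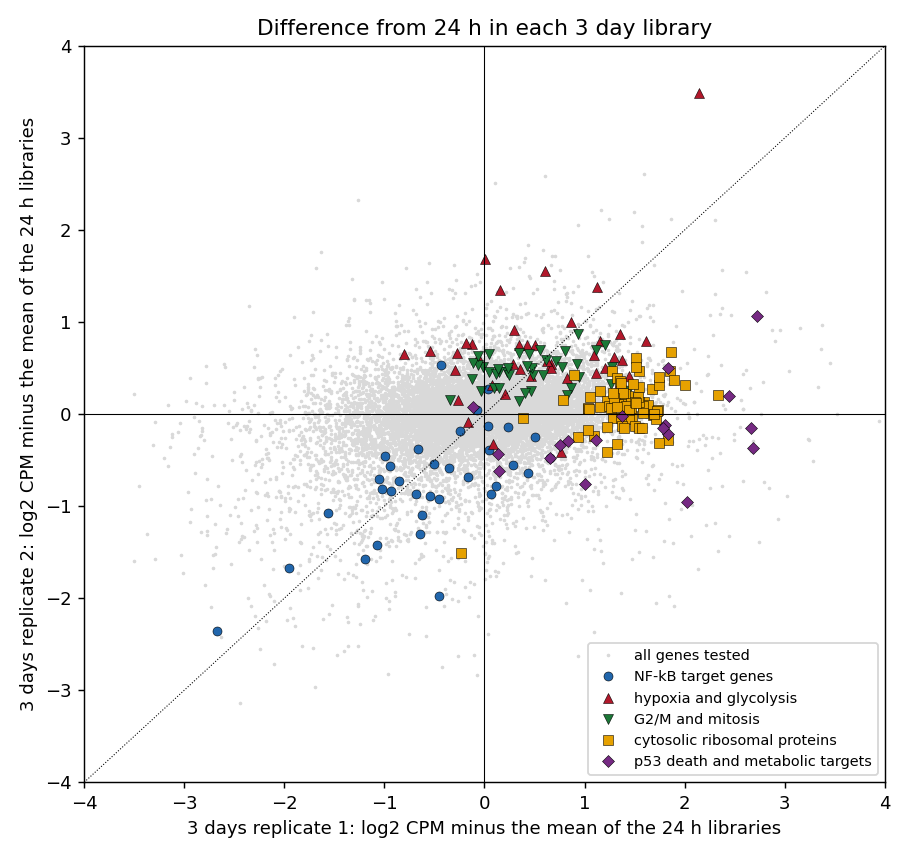
Each tested gene's log2 CPM minus the mean of the 24 h libraries, in 3 day replicate 1 (horizontal) and 3 day replicate 2 (vertical), with 5 gene lists coloured and the dotted line marking equal differences. NF-kB targets lie mostly below 0 and mitosis genes mostly above 0 on both axes, whereas ribosomal protein and p53 death genes lie to the right and near or below 0 on the vertical axis, and 2 genes fall outside the axes.

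The lists of repair genes that chromium lesions call on differed in how far their members shared a side. The list of 45 double-strand break and crosslink repair genes had 24 higher and 21 lower at a median log2 fold change of 0.07, or 0.19 without 24 h replicate 2 and -0.22 without 3 day replicate 2. Its library medians at 3 days were -0.21 in replicate 1 and 0.09 in replicate 2. In replicate 1, 25 members lay below both 24 h libraries (55.6%, beside 41.9% of all genes). The 8 mismatch repair genes had a median log2 fold change of 0.07, with -0.03 and 0.18 in the 3 day libraries. Of 27 nucleotide and base excision repair genes, 20 had a higher mean (74.1%, beside 51.3% of all genes) and 7 a lower one. None was at an unadjusted p under 0.05. Their median was 0.16 (0.08 without 3 day replicate 1), with 0.22 and 0.07 in 3 day replicates 1 and 2. NBN, of the complex that senses double-strand breaks, had 121 and 159.9 CPM at 3 days, against 295 and 213 CPM at 24 h (log2 fold change -0.86 ± 0.28). FANCG, of the crosslink repair core, had 51.3 and 44.3 CPM at 3 days, against 28.4 and 35.3 CPM at 24 h (log2 fold change 0.58 ± 0.22). Both genes were separated between groups, on opposite sides. Of 12 anion carriers that could admit chromate 6 were tested, 2 higher and 4 lower, with none at an unadjusted p under 0.05, and of 19 metal response genes 11 were tested. The metal response list had a median of 0.62 in replicate 1 and 0.05 in replicate 2 at 3 days, against -0.19 and 0.19 at 24 h, and its median log2 fold change of 0.01 was 0.29 without 24 h replicate 2 and 0.61 without 3 day replicate 2. Sterol and fatty acid synthesis genes had a median of -0.19, at -0.34 in replicate 1 and -0.02 in replicate 2, and the 24 h libraries were 0.26 and -0.26. Left out in turn, these 4 libraries gave median fold changes between -0.42 and 0.02. LSS, which closes the sterol rings, had 37.0 and 56.3 CPM at 3 days, against 121 and 69.6 CPM at 24 h.

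Chromatin genes were divided: of 42 tested writers and erasers of DNA and histone methylation and related marks, 24 had a higher and 18 a lower mean at 3 days, at a median log2 fold change of 0.04. EHMT2, the H3K9 methyltransferase G9a, had 44.0 and 31.1 CPM at 3 days, against 21.9 and 22.3 CPM at 24 h (log2 fold change 0.76 ± 0.26). KDM5B, which removes methyl groups from H3K4, had 47.2 and 59.2 CPM at 3 days, against 38.6 and 33.0 CPM at 24 h (log2 fold change 0.57 ± 0.23). KDM2B stood on the other side, at 82.6 and 85.6 CPM at 3 days, against 123 and 117 CPM at 24 h (log2 fold change -0.51 ± 0.19). The 15 genes of CTCF and cohesin had a median of 0.04.

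The levels in the control and 7 day libraries place these differences in the series, with the reservation that all 4 groups share 1 fit and that control and 7 day values are given side by side only. ITGA1 had 70.4 and 77.3 CPM in control cells, 83.9 and 71.5 CPM at 24 h, 22.6 and 20.7 CPM at 3 days and 23.3 and 22.2 CPM at 7 days. CCL22 had 725 and 534 CPM in control cells and 257 and 203 CPM at 7 days, and NFKB2 had 147 and 151 CPM in control cells and 74.9 and 76.0 CPM at 7 days. In each of these 3 genes the control libraries stood with the 24 h ones and the 7 day libraries with the 3 day ones. LDHA had 1893 and 1825 CPM in control cells and 3403 and 2626 CPM at 7 days, and NUSAP1 had 156 and 133 CPM in control cells and 225 and 193 CPM at 7 days, again near the 24 h and 3 day levels. FDXR had 60.1 CPM in replicate 1 and 10.7 CPM in replicate 2 at 7 days, the same division by replicate number as at 3 days. AHR had 145 and 169 CPM in control cells, below both 24 h libraries at 220.2 and 177 CPM and above both 3 day libraries. Control levels also lay between the 2 groups for DENND1B (20.3 and 21.7 CPM), ZNF117 (35.8 and 42.2 CPM) and TNFAIP2 (31.4 and 31.5 CPM). In ADM the control libraries lay above both 24 h libraries and below both 3 day libraries. The NF-kB target list had medians of -0.06 and 0.07 in the control libraries and -0.55 and -0.83 in the 7 day libraries, relative to the 24 h mean, and the hypoxia list had -0.14 and 0.14 in the control libraries and 0.45 and 0.52 in the 7 day libraries. Between 24 h and control, 22 genes had an unadjusted p under 0.05, in libraries that lay nearest to each other crosswise. With libraries tied in this way, the 627 that chance would list among independent ones is not a sound reference for such counts.

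**Figure D4:**
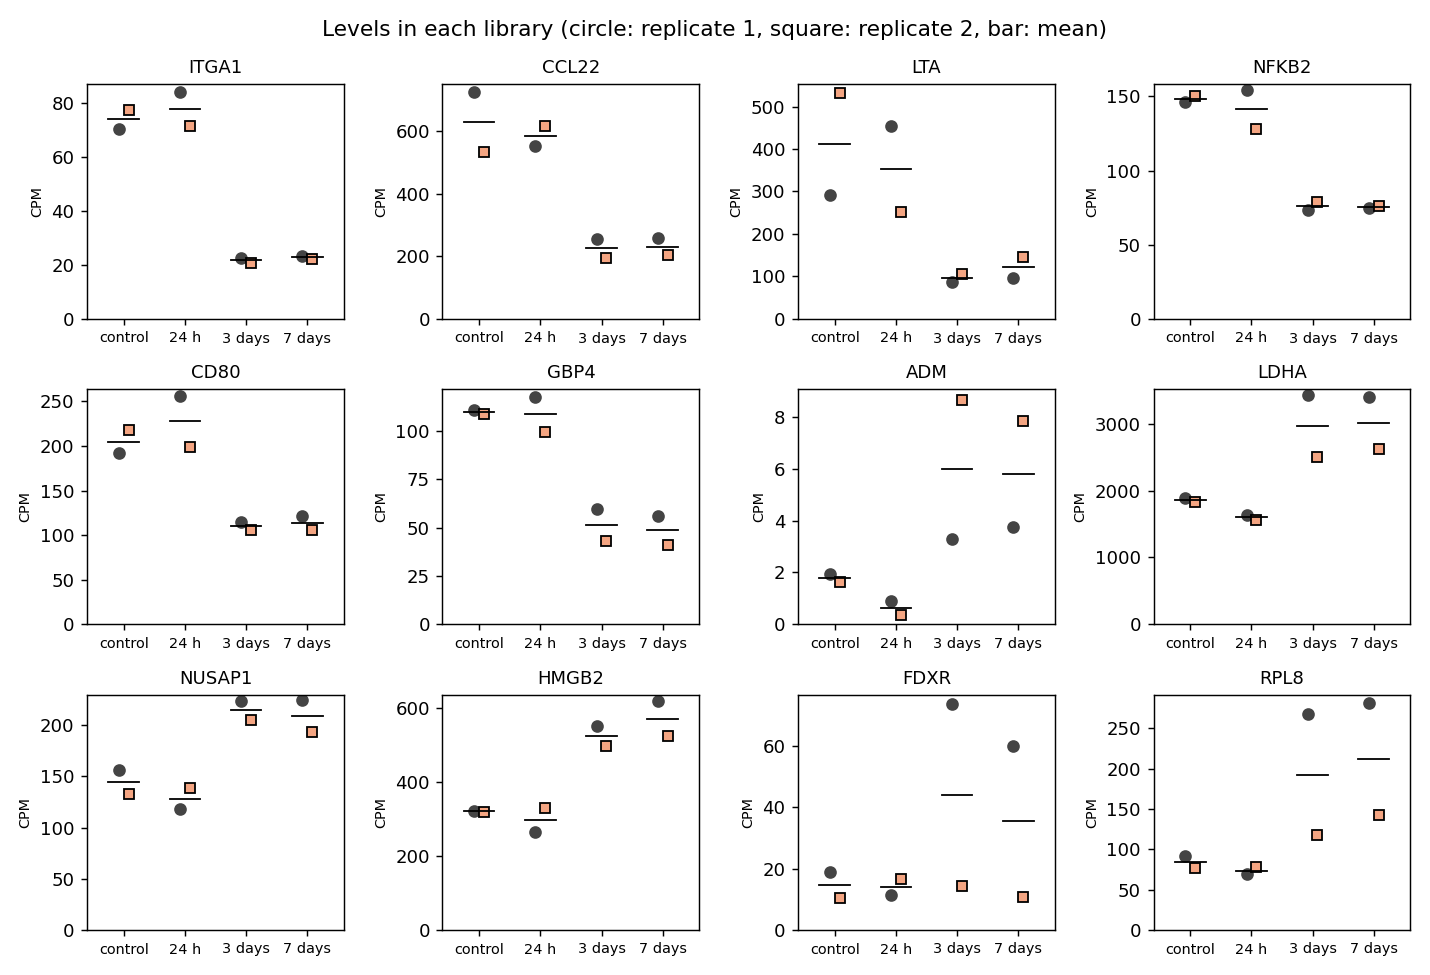
CPM of 12 genes in each library of the 4 groups in order of time (control, 24 h, 3 days, 7 days), with circles for replicate 1, squares for replicate 2 and a bar at the mean. In ITGA1, CCL22, LTA, NFKB2, CD80 and GBP4 the 3 and 7 day points lie below all control and 24 h points, in ADM, LDHA, NUSAP1, HMGB2 and RPL8 they lie above, and in FDXR replicate 1 alone is high.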

How the data were processed

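The authors deposited raw counts, as whole numbers of reads for each gene symbol, with 1 table per library for 8 libraries. Per the submitters' processing notes, the tools were R 3.2.3, DESeq2 1.8.1, Bowtie2, SAMtools and Trim Galore and the builds GRCh37 and hg19. What counted the reads, on which annotation and with which strand setting, is not given in the sources used here, so reads of overlapping or antisense genes cannot be told apart. The 5 entries that name no gene held 42.6% to 57.5% of reads and were left out.

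Of 23710 genes, 12536 passed filterByExpr (minimum count 10, minimum total 15) and were fitted with edgeR 4.0.16 (TMM factors, glmQLFit and glmQLFTest) on all 8 libraries with 1 coefficient per group and no covariate, with Benjamini-Hochberg adjustment over all genes and a threshold of 0.05. The fit had a common BCV (biological coefficient of variation) of 0.276 and 4 residual degrees of freedom. With 2 libraries in each group an exact permutation test of a single gene cannot go below p = 0.333. A prior count of 2 entered log2 CPM, and standard errors were taken from the F statistic. Gene lists are described by counts and medians with no test. Lists share members, so their counts are not independent. NF-kB targets such as LTA, TNF, VCAM1, ICAM1, CCL22, CCL3, CD40 and IRF1 are also in the TNF ligand, adhesion, chemokine, B cell activation or interferon gamma type lists. DESeq2 1.42.0 and limma-voom (limma 3.58.1) on the same genes, other scalings and filters, a fit of 4 libraries, replicate blocks and each library left out were the alternatives. The procedure was tested on simulated data.

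Genes were named by rule: the 14 higher and 14 lower with the smallest p, at least 5 CPM in the higher group, groups that do not overlap and no clone name as symbol, and up to 4 members with the smallest p from each list; some of these are not reported here. The comparison, the 46 gene lists and the 6 marker lists were chosen with earlier results of these data known. Replicate numbers did not pair the libraries compared: the differences between replicates at 3 days and at 24 h had a correlation of -0.318 over genes. They did tie the 3 day libraries to the 7 day ones (0.811), and between 24 h and control the correlation was -0.599. Promoters come from a RefSeq table on GRCh38.p14. No position of the deposited build is used.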

Additional observations from a re-analysis of the deposited data

How the results depend on the processing

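With 2 libraries in each group, calls differed between tools and filters. No gene passed with RLE or upper-quartile scaling, at least 50 counts in 2 libraries, a fit of the 4 libraries compared, limma-voom, either replicate block, or any library left out, whereas edgeR with no filter on low counts called 2 genes higher and 19 lower, and DESeq2 called 1 higher and 18 lower (the cause was not tested). At an unadjusted p under 0.05, no filter listed 655 genes higher. With each library left out the number higher ran from 86 to 1190 and the number lower from 189 to 1135, and without replicate 1 at 3 and 7 days together, an alternative chosen after seeing the data, 756 genes were listed.

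The replicate block in the 4 libraries listed 137 genes higher, and in the 8 libraries the block listed 915 genes in all. A block with crossed numbers, chosen after seeing the data, called 51 genes higher and 168 lower and listed 654 higher and 914 lower at an unadjusted p under 0.05. The median of the interferon gamma type list was -0.69 with limma-voom and -0.59 with the replicate block in 4 libraries.

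With each library left out, list medians ran from -0.85 to -0.37 for NF-kB targets, -0.66 to -0.22 for interferon-stimulated genes, -0.85 to -0.46 for interferon gamma type genes, -0.61 to -0.18 for B cell activation, 0.35 to 0.90 for hypoxia and glycolysis, 0.26 to 0.64 for mitosis and 0.20 to 0.73 for DNA replication. They ran from -0.29 to 0.98 for p53 arrest, -0.25 to 1.57 for p53 death and 0.079 to 1.43 for ribosomal proteins. Without replicate 1 at 3 and 7 days together these last medians were -0.29, -0.25 and 0.081, and that of the interferon gamma type list was -0.69.

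Of 101 genes named, 93 kept their sign in up to 18 alternatives each, the crossed block not among them. The other 8 changed sign when some library was left out, with log2 fold changes over the libraries left out from -0.55 to 0.47 for ENO2, -0.34 to 0.092 for HIF1A, -0.35 to 0.16 for ECT2, -0.040 to 0.37 for CCL4, -0.46 to 0.56 for IL10, -0.48 to 0.65 for FAS, -0.14 to 0.23 for IRF1 and -0.26 to 0.50 for SOD2. Without replicate 1 at both late times FAS was at -0.48, IRF1 at -0.14, SOD2 at -0.25, ECT2 at 0.16 and ENO2 at 0.072. Depth limits VCAM1, ADM and CREB3L1, which rest on at most 97 counts in a library compared.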

Other observations

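Genes of the splicing machinery stood higher at 3 days in both replicates. Of 43 splicing factor genes, 38 had a higher mean at 3 days, 3 were higher (6.98%, beside 2.32% of all genes) and 0 lower at an unadjusted p under 0.05, and both 3 day libraries lay above both 24 h libraries for 22 (51.2%), beside 17% of all genes. The median log2 fold change was 0.29, and 0.15 without 3 day replicate 1. SNRPD2, a core protein of the spliceosomal particles, had 267 and 171 CPM at 3 days, against 113 and 137 CPM at 24 h (log2 fold change 0.81 ± 0.28). SRSF4, a serine and arginine rich factor, had 129 and 113 CPM at 3 days, against 85.7 and 87.1 CPM at 24 h (log2 fold change 0.48 ± 0.19). Neither gene was called by edgeR or DESeq2.

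The B cell marker genes did not share a side. MS4A1, which encodes the surface protein CD20, had 818 and 999 CPM at 3 days, against 1638 and 1221 CPM at 24 h (log2 fold change -0.65 ± 0.26), and CD40 had 26.8 and 29.4 CPM at 3 days, against 64.4 and 36.9 CPM at 24 h. CD79A, a signalling chain of the B cell receptor, stood on the other side, at 205 and 125 CPM at 3 days, against 104 and 114 CPM at 24 h. Of the 12 markers 5 had a higher and 7 a lower mean at 3 days. ODC1, the first enzyme of polyamine synthesis, had 1023 and 911 CPM at 3 days, against 534 and 682 CPM at 24 h (log2 fold change 0.67 ± 0.24), in a list of 16 MYC network genes with 12 higher and 4 lower.

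Genes of the endoplasmic reticulum were divided by replicate in the direction opposite to that of the ribosome. Of 28 chaperones and sensors of unfolded protein, 5 lay above both 24 h libraries in 3 day replicate 1 (17.9%, beside 40.9% of all genes). In replicate 2, 20 did (71.4%, beside 32.2% of all genes). List medians were -0.38 in replicate 1 and 0.26 in replicate 2 at 3 days, against -0.16 and 0.16 at 24 h. B-lineage transcription factors showed a like division, at -0.36 in replicate 1 and 0.31 in replicate 2 at 3 days, against 0.04 and -0.04 at 24 h.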
